A study of Mus musculus with 12 samples.

Results

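Mouse embryonic stem (ES) cells transcribe a set of genes otherwise known from the germ line and the oocyte, and 8 of them were followed: Morc1, Khdc3, Tcl1, Dazl, Ddx4, Mael, Sycp3 and Stk31. They were taken by symbol from a table of 55487 gene rows, and all 8 passed the filter on low counts that left 19235 genes for testing. The list was drawn up with results of these data known, and Morc1 and Khdc3 were chosen by their read counts, which were lower in knockout than in wild type cells 7 days after withdrawal of LIF (leukaemia inhibitory factor, the cytokine that keeps mouse ES cells self-renewing). The difference between genotypes at day 7 is therefore a description here, with no test.

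The data are 12 polyA RNA-seq libraries from female ES cells of a C57BL6/CAST hybrid background. There were 4 groups of 3 libraries: wild type and SIRT7-KO, each at day 0 and at day 7. By the treatment protocol, cells were kept in LIF until day 0 and LIF was then withdrawn. The treatment label of the samples (LIF or None) runs by replicate and genotype, not by day, against that protocol. Day and genotype here follow the sample titles. SIRT7 is an NAD-dependent deacetylase of the sirtuin family. Library totals ran from 25190483 to 69079368 reads assigned to genes. The labels do not say which part of Sirt7 was deleted, how many clones were used or whether replicates were separate cultures, so that p-values measure the spread between these libraries, which may be technical.

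Germ cells need proteins that other cells do without: a piRNA machinery against transposons, a meiotic chromosome axis, RNA-binding proteins that time translation, and maternal complexes stored in the egg. In most cells the genes for them are shut, many of them by methylation of CpG-rich promoters and by the repressor complex PRC1.6, whose MGA-MAX part binds the E-box CACGTG and whose E2F6 part binds E2F sites. ES cells in LIF have a naive state in which some of these genes are transcribed, and they can gain DNA methylation as they leave it. Methylation was not measured here.

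RefSeq promoters on GRCm38.p6 matched 7 of the 8 genes (all but Morc1). The windows are 300 bases long, 250 before the start and 50 after it. They were searched on both strands for CACGTG, which is its own reverse complement, and for TTCCCGC, the core letters of an E2F site. Of 27025 promoters of this length, 7.24% hold CACGTG and 4.66% hold TTCCCGC. The E-box CACGTG is present in 4 of the 7, Ddx4, Mael, Sycp3 and Stk31, and these are shown because they carry the motif that PRC1.6 is known to bind; Khdc3 is shown beside them as the one with no CpG. Each runs 5′ to 3′ on the gene's strand, and capitals mark the E-box and, in Ddx4 and Sycp3, the E2F core or its reverse complement.
Ddx4 (chr13:112652261-112652560, minus strand): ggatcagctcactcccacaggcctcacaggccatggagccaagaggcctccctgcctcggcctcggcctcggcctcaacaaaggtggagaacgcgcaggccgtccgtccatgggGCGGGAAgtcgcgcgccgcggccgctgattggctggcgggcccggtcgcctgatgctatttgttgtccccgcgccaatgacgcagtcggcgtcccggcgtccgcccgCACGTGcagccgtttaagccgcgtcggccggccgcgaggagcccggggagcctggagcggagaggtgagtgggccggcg
Mael (chr1:166238695-166238994, minus strand): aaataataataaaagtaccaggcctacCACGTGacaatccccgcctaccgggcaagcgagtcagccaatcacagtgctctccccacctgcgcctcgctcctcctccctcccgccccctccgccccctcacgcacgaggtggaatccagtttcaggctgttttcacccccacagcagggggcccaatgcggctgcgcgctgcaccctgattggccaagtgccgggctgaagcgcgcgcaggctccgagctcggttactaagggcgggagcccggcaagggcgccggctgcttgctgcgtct
Sycp3 (chr10:88459337-88459636, plus strand): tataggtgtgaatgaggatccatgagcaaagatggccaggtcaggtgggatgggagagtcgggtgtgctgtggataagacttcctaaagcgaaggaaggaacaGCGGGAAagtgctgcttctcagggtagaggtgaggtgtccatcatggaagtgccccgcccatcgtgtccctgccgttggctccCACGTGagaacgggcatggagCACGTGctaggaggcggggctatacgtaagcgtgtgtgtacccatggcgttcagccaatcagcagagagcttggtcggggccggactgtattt
Stk31 (chr6:49395289-49395588, plus strand): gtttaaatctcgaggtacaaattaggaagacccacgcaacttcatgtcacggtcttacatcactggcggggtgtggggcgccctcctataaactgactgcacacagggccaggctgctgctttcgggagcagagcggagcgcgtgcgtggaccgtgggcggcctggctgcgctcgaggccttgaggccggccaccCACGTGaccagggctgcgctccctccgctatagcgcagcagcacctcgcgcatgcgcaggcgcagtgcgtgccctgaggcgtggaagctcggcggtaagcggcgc
Khdc3 (chr9:73102148-73102447, plus strand): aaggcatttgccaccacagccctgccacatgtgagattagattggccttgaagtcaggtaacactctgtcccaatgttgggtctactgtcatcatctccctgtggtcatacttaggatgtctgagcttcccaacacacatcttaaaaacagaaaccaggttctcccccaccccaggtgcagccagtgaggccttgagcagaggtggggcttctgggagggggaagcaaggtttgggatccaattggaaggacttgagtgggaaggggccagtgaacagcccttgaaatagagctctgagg
Counted from 1 at the 5′ end, CACGTG begins at base 222 in Ddx4, 28 in Mael, 187 and 208 in Sycp3 and 196 in Stk31. CpG dinucleotides number 38 in Ddx4, 29 in Stk31, 28 in Dazl, 24 in Mael, 15 in Sycp3, 11 in Tcl1 and 0 in Khdc3, against a median of 7 over all promoters. Of 26 promoters of a list of germline genes under promoter methylation and PRC1.6, which shares 5 of the 8 genes, 12 hold CACGTG and 8 hold TTCCCGC, with a median of 20 CpGs. That list was chosen for such control and holds Ddx4, Mael, Sycp3 and Stk31, so that these counts are no independent support. Of 17 promoters of oocyte and maternal complex genes, Khdc3 among them, 3 hold CACGTG and 0 hold TTCCCGC, with a median of 5 CpGs. A match is a string of letters and was not tested for binding.

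Sirt7 itself was read first, as a check of the labels. Levels are in CPM, counts of a gene over the library size scaled by edgeR's TMM factor, on the usual CPM scale. Sirt7 stood at 12.7, 8.03 and 10.3 in wild type and 19.2, 23.8 and 16.9 in labelled knockout at day 0. At day 7 it stood at 10.2, 10.6 and 15.3 against 25.1, 20.1 and 23.8. Every library labelled knockout was above every wild type library of its day. The log2 differences were 0.95 (SE 0.21, edgeR quasi-likelihood adjusted p = 0.182) at day 0 and 0.94 (SE 0.21, adjusted p = 0.299) at day 7. The level of the targeted gene was thus not lower in the libraries labelled knockout, and neither difference passed the threshold. Sirt7 overlaps Mafg and Mir6936 on the same strand, so that strand does not separate their reads. Which part of the gene the reads cover was not analysed here, so that the labels could not be checked by this level. Each direction below is that of the library labelled knockout against the library labelled wild type.

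Markers were read as a check of the naive label. All 14 naive ES cell markers were detected at day 0, with a summed level of 8027 to 8580 CPM over the 6 libraries, and at day 7 the sum was 473 to 531 CPM. Markers of mature male germ cells summed to between 0.28 and 1.33 CPM at day 0, with 7 or 8 of the 10 at 0 in every library of a group. Growing oocyte markers summed to between 6.34 and 13.0 CPM, most of it Zp3, a zona pellucida protein (10.9 ± 1.46 CPM in wild type and 7.28 ± 1.83 in labelled knockout, SD, n = 3). Feeder fibroblast markers summed to 21.9 to 31.1 CPM at day 0. Formative and primed markers summed to 187 to 277 CPM, of which Dnmt3b, a de novo DNA methyltransferase, gave 157 CPM in wild type (147 CPM at day 7), and 2-cell-like markers summed to 26.9 to 52.6 CPM. Naive markers were thus read at day 0, with some signal of the other ES cell states. The sums cover lists of different genes and are not compared with each other. In wild type, Pou5f1 gave 2650 CPM, Dppa5a 1727 CPM and Nanog 1028 CPM of the naive sum at day 0.

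At day 0 all 8 genes were read in all 6 libraries, and Morc1, Tcl1 and Khdc3 had the most reads. Morc1 (chr16:48431237-48630900, plus strand, GRCm38), an ATPase that represses transposons in the male germ line, was read at 133, 169 and 166 CPM in wild type and at 165, 158 and 193 CPM in labelled knockout. Tcl1 (chr12:105216750-105222793, minus strand), a co-activator of Akt kinases first known from T cell leukaemia, was at 85.0, 93.9 and 95.9 CPM in wild type and at 83.9, 93.3 and 96.2 CPM in labelled knockout. Khdc3 (chr9:73101836-73104438, plus strand), a member of the subcortical maternal complex of the egg that also guards genome stability in ES cells, was at 47.5, 44.6 and 41.7 CPM in wild type and at 39.3, 46.4 and 46.7 CPM in labelled knockout. In all 3 genes the genotypes overlapped and no library stood apart.

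The other 5 genes rested on fewer reads. Mael (chr1:166201201-166238747, minus strand), a piRNA pathway protein that silences transposons in spermatocytes, was at 15.9, 10.2 and 11.2 CPM in wild type and at 11.5, 11.6 and 11.7 CPM in labelled knockout. Ddx4 (chr13:112598333-112652475, minus strand), the mouse Vasa helicase of germ granules, was at 5.63, 3.74 and 3.40 CPM in wild type and at 4.47, 2.80 and 5.33 CPM in labelled knockout. In both genes the genotypes overlapped and the first wild type library was the highest.
Stk31 (chr6:49395604-49469501, plus strand), a Tudor domain protein of germ cells with a kinase-like part, was at 4.83, 4.43 and 3.61 CPM in wild type and at 4.47, 2.76 and 3.47 CPM in labelled knockout. Sycp3 (chr10:88459569-88473236, plus strand), a building block of the lateral elements of the synaptonemal complex, was at 3.48, 4.64 and 4.34 CPM in wild type and at 3.31, 3.94 and 5.59 CPM in labelled knockout. Dazl (chr17:50279395-50293636, minus strand), an RNA-binding protein that promotes translation in germ cells, was at 5.99, 4.12 and 5.87 CPM in wild type and at 3.75, 3.52 and 3.86 CPM in labelled knockout. Dazl was the single gene of the 8 whose day 0 groups did not overlap.

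**Figure D1:**
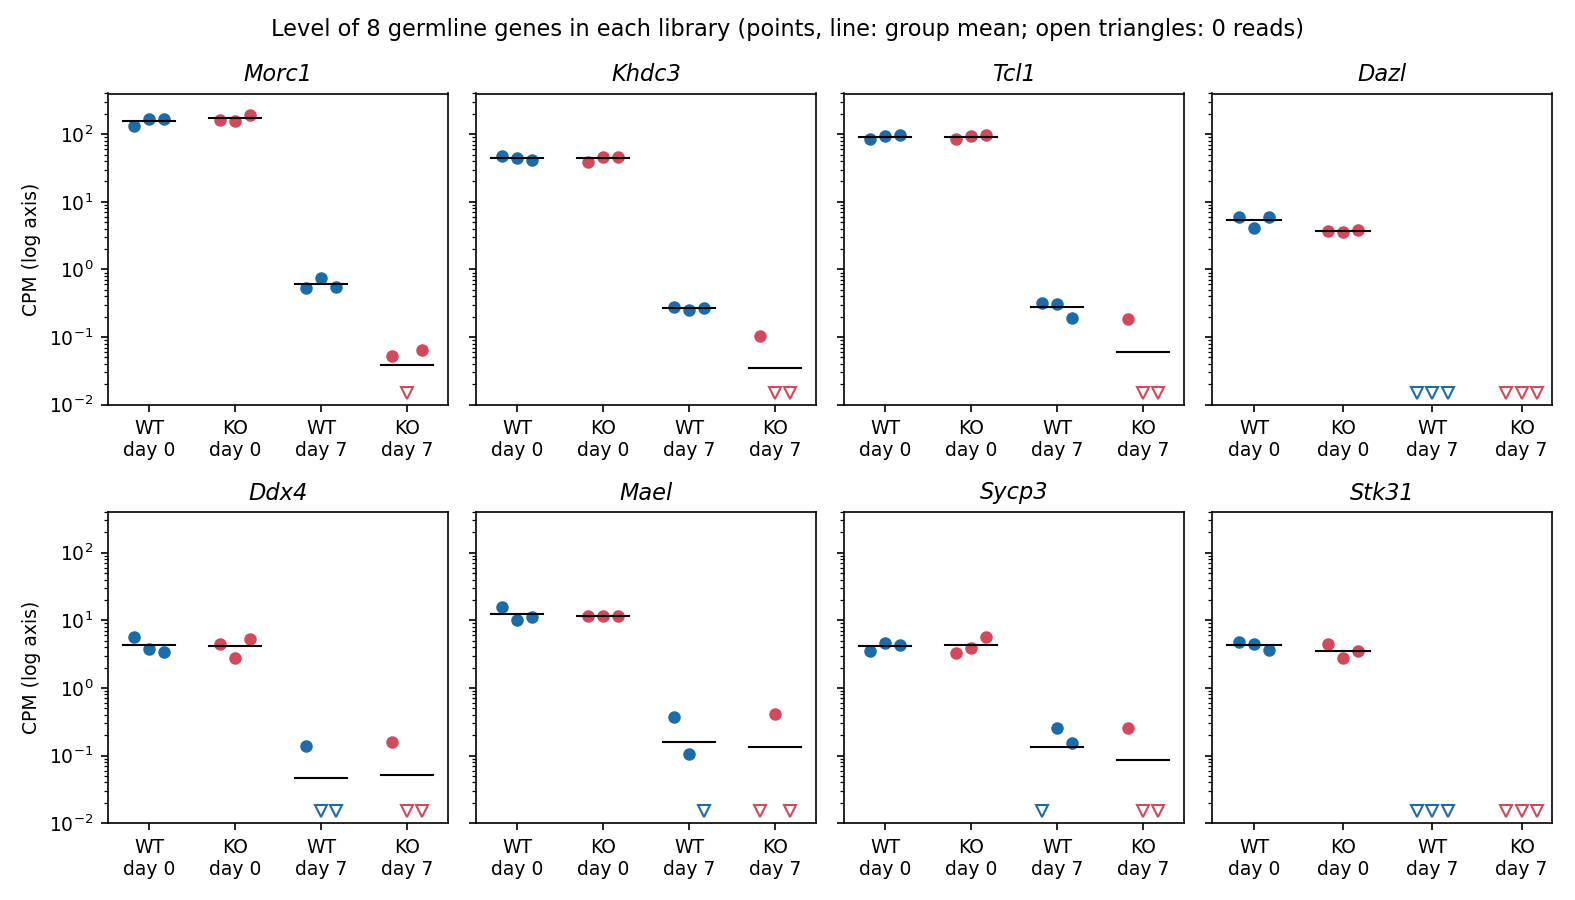
Level of each of the 8 genes in each library (CPM, log axis), with points for libraries, a line for the group mean and open triangles for libraries with 0 reads; WT is wild type and KO is labelled knockout. All 8 genes drop by day 7, and Dazl and Stk31 have 0 reads in all 6 day 7 libraries.

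Per kilobase of exon, the scale on which genes can be compared, the order at day 0 was Tcl1, Morc1, Khdc3, Mael, Sycp3, Ddx4, Stk31 and Dazl. Over the 6 day 0 libraries the levels were 49.5 ± 2.96 CPM per kb for Tcl1, 25.4 ± 2.96 for Morc1 and 21.6 ± 1.57 for Khdc3 (SD, n = 6). Mael stood at 6.95 ± 1.15 CPM per kb and Sycp3 at 3.33 ± 0.665. The last 3 were Ddx4 at 1.4 ± 0.369, Stk31 at 1.21 ± 0.24 and Dazl at 1.18 ± 0.291 CPM per kb. Tcl1 lay above 92.5% of the tested genes and Dazl above 39.8%. Morc1 and Khdc3 overlapped over the libraries, as did neighbours among the last 3, whereas the other neighbours in the order did not overlap. These values use the length of all annotated exons of a gene. Sycp3 lies within Chpt1 on the opposite strand, and strand use in the counting is not given in the sources used here, so that strand does not separate the reads of the pair. Chpt1, an enzyme of phosphatidylcholine synthesis, stood at 5.09 ± 0.252 CPM in wild type and 3.93 ± 0.758 in labelled knockout at day 0, and at 5.52 ± 1.06 and 3.7 ± 1.21 CPM at day 7 (SD, n = 3), where Sycp3 was at 0.136 ± 0.127 and 0.0865 ± 0.15 CPM. Khdc3 overlaps the predicted gene Gm20509 on the same strand, which was listed at 0 in all 12 libraries, and Stk31 overlaps the pseudogene Gm17060.

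The number of annotated forms behind a level varied. Morc1-201 took 98.6% of the Morc1 count in wild type and 98.4% in labelled knockout at day 0, and Tcl1-201 took 84.9% and 86.4% of Tcl1. Khdc3-201 took 68.0% and 66.3% of Khdc3. For genes with few reads the division changed from library to library: Ddx4-202 took the whole count in the second wild type library and none of it in the other two, and took 96.8% or more in each labelled knockout library, with Ddx4-201 as the alternative. Dazl-201 took 97.3, 0.0 and 3.55% in wild type and 95.5%, the whole and none of the count in labelled knockout. StringTie divides reads between overlapping forms, and such jumps between replicates leave the form of Ddx4 and Dazl unsettled at this depth.

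The first comparison asked whether SIRT7 genotype sets the level of these genes in self-renewing cells, in a contrast that did not choose them. By edgeR's quasi-likelihood test 0 of the 8 passed an adjusted p of 0.05, DESeq2 called 0, and 0 reached an unadjusted p under 0.05 by either tool; over all tested genes 25 passed, which is 0.13%. The log2 difference, labelled knockout minus wild type, was 0.14 for Morc1 (SE 0.16, 95% interval -0.22 to 0.5, adjusted p = 0.802). It was -0.01 for Khdc3 (interval -0.55 to 0.52) and -0.01 for Tcl1 (interval -0.62 to 0.6), both with an adjusted p of 1.0. The intervals of these 3 genes stayed between -0.62 and 0.6 log2 units.
For Ddx4 the difference was -0.02 (interval -1.49 to 1.46), for Mael -0.1 (interval -1.55 to 1.34) and for Sycp3 0.04 (interval -1.52 to 1.61), so that 1 log2 unit in either direction lies within each interval. Stk31 differed by -0.27 (interval -0.94 to 0.41, adjusted p = 0.788). Dazl differed by -0.52 (SE 0.25, interval -1.12 to 0.08, unadjusted p = 0.0803, adjusted p = 0.472), lower in 3 of 3 labelled knockout libraries. Groups that do not overlap, with labelled knockout lower, made up 7.22% of all tested genes.

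**Figure D2:**
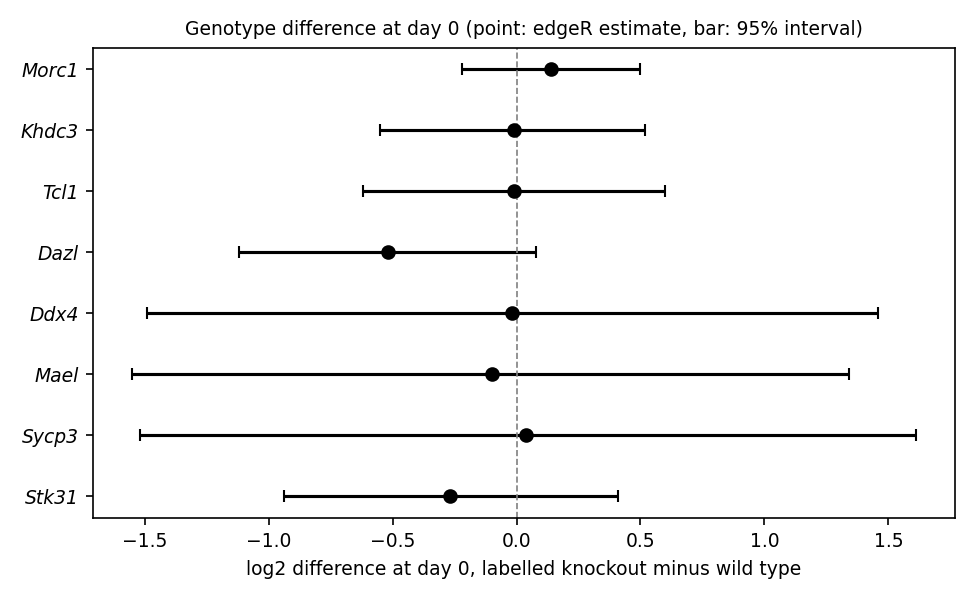
Log2 difference at day 0, labelled knockout minus wild type, for each of the 8 genes (point, edgeR estimate; bar, 95% interval; 3 libraries a group). All 8 intervals include 0, and those of Ddx4, Mael and Sycp3 reach beyond 1 log2 unit on both sides.

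The second comparison, day 7 against day 0, followed the genes through LIF withdrawal. In each genotype all 8 were lower in every day 7 library than in any day 0 library. Apart from Morc1 and Khdc3, each was called lower in both genotypes by edgeR and by DESeq2. Over all tested genes 32.1% were called lower and 32.9% higher in wild type. The shares were 32.3% lower and 31.1% higher in the labelled knockout. The genes passed the filter on low counts through day 0, where they are high: with the 2 day 7 groups alone 1 of the 8, Morc1, passed it. A lower level at day 7 is therefore partly built into the selection, and the count of calls is not set against the background. Morc1 and Khdc3 were picked on the counts of these same day 7 libraries, and their changes over time are given as a description, with no p. In bulk libraries fewer cells that transcribe a gene and less RNA per cell cannot be told apart.

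Of the 3 genes with the most reads, Morc1 was left at 0.532, 0.757 and 0.542 CPM in the wild type day 7 libraries, from 23, 51 and 14 reads. The fitted log2 difference from day 0 was -7.95 (SE 0.23). Tcl1 was left at 0.324, 0.312 and 0.194 CPM from 14, 21 and 5 reads and fell by 8.29 (SE 0.41, edgeR adjusted p = 1.6e-08). Khdc3 was left at 0.277, 0.252 and 0.271 CPM from 12, 17 and 7 reads, a difference of -7.38 (SE 0.35). Every wild type day 7 library thus still held reads of all 3 genes.
In the labelled knockout, Tcl1 fell by 10.28 (SE 0.48, adjusted p = 1.14e-08), and the differences of Morc1 and Khdc3 were -11.94 (SE 0.31) and -9.99 (SE 0.43). These values rest on a handful of reads at day 7 and depend on the prior count of the fit: without the first labelled knockout day 7 library, Tcl1 and Khdc3 have no reads left in the group and stand at -14.66 and -13.61.

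Of the other 5, Dazl and Stk31 had 0 reads in all 6 day 7 libraries. Set against a floor of 3 counts over a group, Dazl was at least 242-fold lower in wild type and at least 123-fold lower in the labelled knockout (edgeR adjusted p = 1.53e-06 and 2.78e-06), and Stk31 at least 195-fold and 118-fold lower (adjusted p = 3.47e-06 and 5.39e-06). Floors cover counting error only. Ddx4 was left at 0.139, 0 and 0 CPM in wild type and at 0.156, 0 and 0 CPM in the labelled knockout, and fell by 6.44 (SE 0.97, adjusted p = 0.000138) in the first and fell by 6.09 (SE 0.97, adjusted p = 0.000201) in the second on the log2 scale.
Mael was left at 0.37, 0.104 and 0 CPM in wild type and at 0, 0.405 and 0 CPM in the labelled knockout, and fell by 6.18 (SE 0.89, adjusted p = 9.49e-05) in the first and fell by 6.5 (SE 0.94, adjusted p = 0.000102) in the second. Sycp3 was left at 0, 0.252 and 0.155 CPM in wild type and at 0.259, 0 and 0 CPM in the labelled knockout, and fell by 4.82 (SE 0.9, adjusted p = 0.000636) in the first and fell by 5.43 (SE 0.96, adjusted p = 0.000459) in the second. In these 3 genes a single library carried all the reads of the labelled knockout at day 7. Without it the values are set by the prior count, at -10.22 for Ddx4, -11.72 for Mael and -10.25 for Sycp3. The same holds for Ddx4 in wild type without the first day 7 library, at -10.22.

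The day 7 libraries of the 2 genotypes give the values that put Morc1 and Khdc3 on the list. Morc1 held 2, 0 and 2 reads in the labelled knockout libraries (0.0519, 0 and 0.0645 CPM) against 23, 51 and 14 in wild type, a fitted log2 difference of -3.85 (SE 0.42). Khdc3 held 4, 0 and 0 reads against 12, 17 and 7, a difference of -2.63 (SE 0.58). Tcl1 held 7, 0 and 0 reads against 14, 21 and 5, a difference of -2.0 (SE 0.64). In all 3 the groups did not overlap, but for Tcl1 the highest labelled knockout library, at 0.182 CPM, came close to the lowest wild type library, at 0.194 CPM.
The other genes with reads, Ddx4 (0.34, SE 1.3), Mael (-0.42, SE 1.12) and Sycp3 (-0.56, SE 1.09), overlapped between genotypes. Over all tested genes 5 were called at day 7, which is 0.026%, and 12.8% had groups that did not overlap with the labelled knockout lower; since the rule used this contrast, nothing is read from either share. Without the first labelled knockout library, which held all day 7 reads of Khdc3 and Tcl1 in that group, both are at 0 in the group and the fitted differences of -6.26 and -6.38 are set by the prior count.

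Expressed as the share of the day 0 level left at day 7, Morc1 stood at 0.391% in wild type and 0.0225% in the labelled knockout, Khdc3 at 0.599% and 0.0783%, and Tcl1 at 0.302% and 0.0664%. Set between genotypes, these shares hold the contrast that picked Morc1 and Khdc3, and they are a description with no test. The labelled knockout shares of these genes rest on 4, 4 and 7 reads at day 7. Ddx4 stood at 1.09% and 1.24%, Mael at 1.27% and 1.16%, and Sycp3 at 3.27% and 2.02%. For Dazl the limits were 0.413% and 0.816%, and for Stk31 0.512% and 0.848%. The 14 naive markers, read beside them, kept a median of 3.48% in wild type (0.271 to 101%) and 2.82% in the labelled knockout (0.178 to 102%). For 9 of the 14 the share was lower in the labelled knockout. The same count over all genes was not made, and nothing is read from it.
Zfp42, a naive transcription factor, kept 0.3% and 0.221%, and Nr0b1 kept 0.271% and 0.178%. Among the markers that went the other way, Nanog kept 2.73% in wild type and 3.18% in the labelled knockout, and Pou5f1 kept 5.53% and 6.71%. The summed level of all 14 naive markers at day 7 overlapped between genotypes. It was 473 to 528 CPM in wild type and 507 to 531 CPM in the labelled knockout. Tbx3, which did not fall, gave 172 and 174 CPM of it on average. The summed day 7 mesoderm markers did not overlap, at 2200 to 2437 CPM in wild type and 1899 to 1952 CPM in labelled knockout. Most of that sum was Hand1, at 1945 and 1508 CPM. T (135 and 159 CPM), Pdgfra (92.1 and 100) and Kdr (37.6 and 41.3) had the higher mean in the labelled knockout. Gata4, Mesp1 and Tbx6 had the lower mean there. The summed fibroblast markers did not overlap either, at 1321 to 1514 and 1055 to 1087 CPM, with Col1a1 at 1176 and 885 CPM. No gene of either list was called between genotypes at day 7. The part of these markers in the day 7 values was not tested. Esrrb, an orphan nuclear receptor of naive cells, was the one naive marker called between genotypes at day 0 (log2 difference 2.4, edgeR adjusted p = 0.00147), with 43.8 CPM in wild type and 231 CPM in the labelled knockout.

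**Figure D3:**
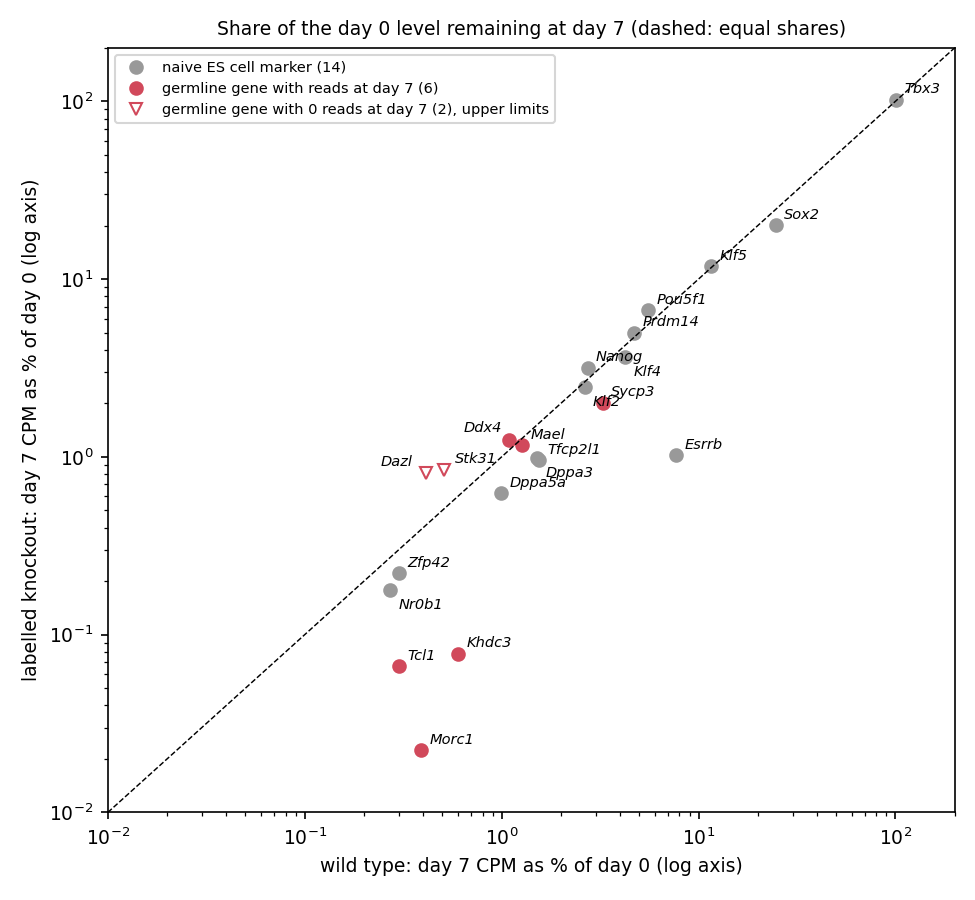
Mean level at day 7 as a percentage of that at day 0, wild type on the x axis and labelled knockout on the y axis (both log axes), for 6 of the germline genes, upper limits for Dazl and Stk31, and 14 naive markers. Morc1, Khdc3 and Tcl1 lie below the line of equal shares, at 0.0225 to 0.0783% in the labelled knockout, and Ddx4, Mael and Sycp3 lie near it. Morc1 and Khdc3 were picked by the day 7 contrast that this distance holds. The labelled knockout shares of Morc1, Khdc3 and Tcl1 rest on 4, 4 and 7 reads at day 7.

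The hybrid background allows the reads of the 2 parental genomes to be separated where they differ. The deposited tables call them genome 1 and genome 2, and the columns do not say which strain is which. At day 0, 6 of the 8 genes had reads of genome 1 alone. Morc1 had 0 of 11127 allele-resolved reads from genome 2 in wild type and 0 of 12418 in the labelled knockout, which allows a share of up to 0.027% and 0.0242%. Tcl1 had 0 of 6609 and 0 of 6899, allowing up to 0.0454% and 0.0435%.
Dazl had 0 of 121 and 0 of 114, allowing up to 2.48% and 2.63%. The limits were wider for Mael (8.57% and 2.65%), Stk31 (4.76% and 7.89%) and Sycp3 (10% and 11.5%), which had 26 to 113 allele-resolved reads per group.

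Khdc3 and Ddx4 were read from both genomes. The genome 2 share of Khdc3 was 77.0, 81.4 and 86.0% in the wild type libraries and 89.4, 87.0 and 86.9% in the labelled knockout libraries, or 81.5 ± 4.49% and 87.8 ± 1.41% (SD, n = 3). The groups did not overlap, by a margin smaller than the spread within wild type. How many of all genes show such a gap was not counted, and nothing is read from it. The allele-split table held 139% of the whole-genome count for Khdc3, so that its share rests on reads that the whole-genome count does not hold. The genome 2 share of Ddx4 was 81.2, 65.6 and 58.8% in wild type and 56.4, 62.9 and 46.5% in the labelled knockout, or 68.6 ± 11.5% and 55.2 ± 8.24%, with overlapping groups.
In an edgeR fit of both genomes' reads with a block per library, the log2 ratio of genome 2 to genome 1 differed by 0.69 for Khdc3 (SE 0.29, adjusted p = 1.0) and by -0.89 for Ddx4 (SE 0.6, adjusted p = 1.0). Over the 10502 genes tested, 1 passed, which is 0.00952%. Mael, Sycp3 and Stk31 had under 20 allele-resolved reads in at least 1 library and were not tested. Morc1, Tcl1 and Dazl had no genome 2 read in either genotype, so that no difference could be called for them.

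The genes around them were read the same way. Genes with under 1% of reads from genome 2 made up 42.5% of 11843 autosomal genes, with large differences between chromosomes. They made up 79.9% on the chromosome of Sycp3, 74.7% on that of Morc1, 65.2% on that of Tcl1, 58.8% on that of Mael, 57.5% on that of Stk31 and 54.1% on that of Dazl, but 9.0% on that of Khdc3 and 2.3% on that of Ddx4. Within 5 Mb the share was 86.7% of 45 genes for Sycp3, 83.3% of 54 for Tcl1 and 80.9% of 47 for Stk31. It was 66.0% of 50 for Mael, 59.7% of 72 for Dazl and 38.5% of 26 for Morc1.
For Morc1 that share is below the 42.5% of all autosomal genes, and the median of the 26 genes was 6.03% genome 2. Its 6 nearest genes with enough reads were mixed: Dppa2 and Dppa4, a pair of genes for chromatin factors of ES cells, had 0.554% and 19.4% of reads from genome 2, the predicted genes Gm8670 and Gm7204 had 87.6% and 14.7%, and Dzip3 and Cip2a had 0. Within 5 Mb of Khdc3 the median share of 45 genes was 54.7% and 2 of them reached its own pooled 84.7%. Within 5 Mb of Ddx4 the median of 33 genes was 52.1% and 11 reached its own 61.9%. The allele-split tables held 139% of the whole-genome count for Khdc3 and 116% for Tcl1, and 78.8 to 99.6% for the other 6 genes, so that levels were not compared between the tables.

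**Figure D4:**
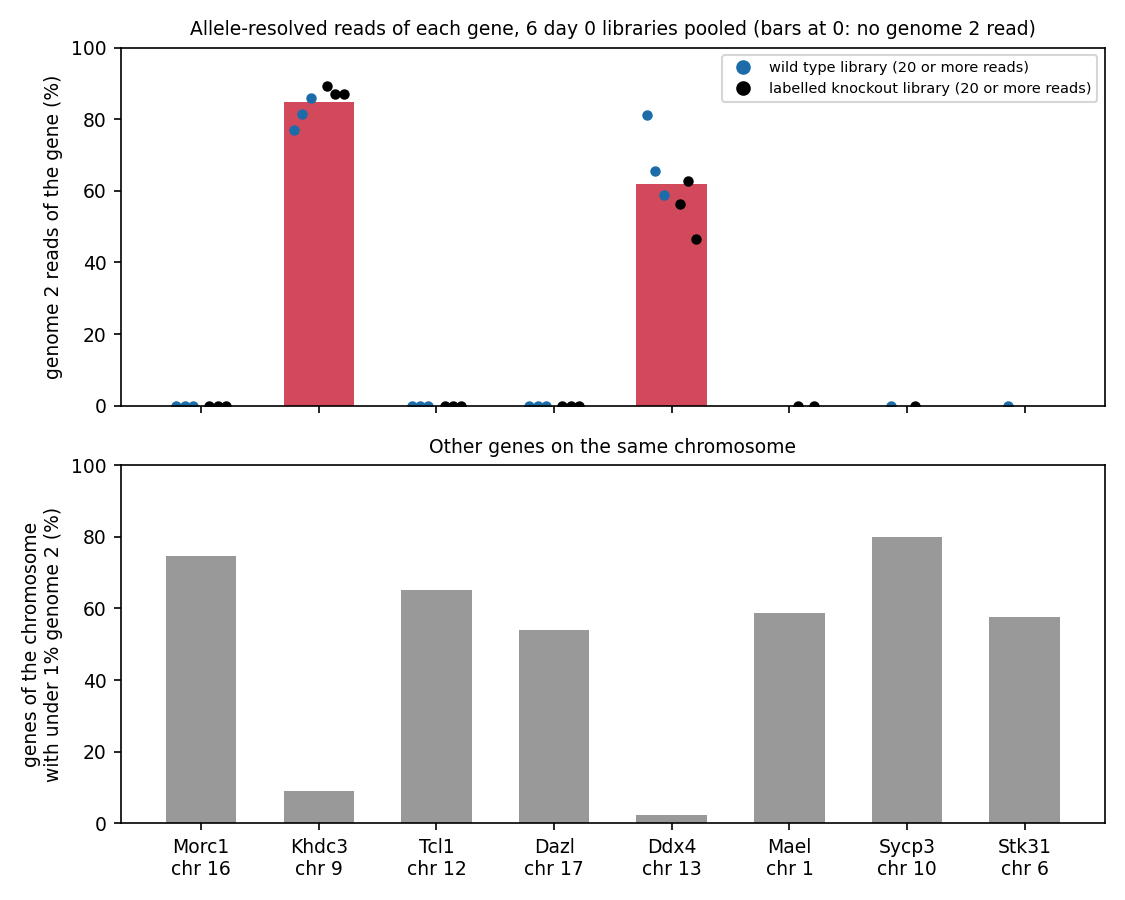
Top, genome 2 share of each gene's allele-resolved reads at day 0 (bar, 6 libraries pooled; points, libraries with 20 or more such reads). Bottom, share of genes on the same chromosome with under 1% of reads from genome 2. The bars of Khdc3 and Ddx4 reach 84.7% and 61.9% and those of the other 6 genes are at 0, while the chromosomes of Khdc3 and Ddx4 have the lowest shares in the lower panel.

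Other germline genes changed between days as well. Over all tested genes 32.1% were called lower and 32.9% higher in wild type, and 32.3% and 31.1% in the labelled knockout. List genes without reads at day 7 passed the filter on low counts through day 0. A fall is thus partly built into the counts of the germline lists below, which are not set against these shares. Of 22 tested genes under promoter methylation and PRC1.6, a list that holds 5 of the 8, 21 fell and 1 rose in each genotype, with a median log2 difference of -6.53 in wild type and -6.38 in the labelled knockout (-6.31 and -6.22 where a gene without reads takes its bound); the median of all tested genes was 0.01 and -0.02. Dnmt3l, the cofactor of the de novo DNA methyltransferases, went from 228 to 4.32 CPM in wild type and fell by 5.73 on the log2 scale (SE 0.17, edgeR adjusted p = 3.65e-10). Tex19.1, a germline regulator of transposons, went from 77.7 to 1.37 CPM and fell by 5.81 (SE 0.13). Rpl10l, a ribosomal protein copy used in meiosis, fell by 8.22 (SE 0.57), and Tdrkh, a Tudor protein of the piRNA pathway, was the one that rose, by 1.85 in wild type (adjusted p = 0.00258). Sohlh2, a germ cell transcription factor at 31.3 CPM in wild type at day 0, had 0 reads there at day 7.

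Of 17 tested piRNA pathway genes, Mael, Ddx4 and Stk31 among them, 12 fell and 3 rose in each genotype, with medians of -6.18 and -4.54 (-6.09 and -4.54 with genes at their bound). Fkbp6, a co-chaperone of piRNA loading, fell by 9.57 in wild type (SE 0.85, adjusted p = 1.92e-06) and Tdrd12 fell by 5.27 (SE 0.33, adjusted p = 1.14e-07). The 3 that rose were Tdrkh, Tdrd5 and Tdrd7, Tudor domain genes like Tdrd12 and Stk31, which fell; Tdrd7 went from 0.302 to 12.6 CPM and Tdrd5 from 0.711 to 8.39 CPM in wild type.
Of 23 tested genes of the meiotic axis and recombination, Sycp3 among them, 17 fell and 1 rose in wild type, and 18 fell and 1 rose in the labelled knockout. Their medians were -4.82 and -4.89 (-4.06 and -3.98 with genes at their bound). Syce2, a central element protein of the synaptonemal complex, was read at 94.8 CPM in wild type at day 0 and fell by 2.23 (SE 0.13, adjusted p = 6.71e-08). Syce1 went from 37.4 to 0.0412 CPM, and Hormad1, a protein of the unsynapsed axis, went from 20.9 CPM to 0 reads. Spo11, the enzyme of meiotic DNA breaks, was the one that rose, from 0.0666 to 0.676 CPM in wild type.

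Of 11 tested oocyte and maternal complex genes, Khdc3 among them, 7 fell in each genotype, with 2 rising in wild type and 3 in the labelled knockout. Ooep, a partner of Khdc3 in the subcortical maternal complex, went from 91.9 to 0.424 CPM in wild type and fell by 7.78 (SE 0.27, adjusted p = 1.25e-09). Dppa5a, a KH-domain relative of both that marks ES cells, went from 1727 to 17.2 CPM. Tle6, a further member of the complex, fell by 2.38 (SE 0.27), and Zbed3 rose by 1.4 (SE 0.08, adjusted p = 5.25e-08). The medians were -4.0 in wild type and -7.31 in the labelled knockout, or -4.0 and -5.2 with genes at their bound.
Of 16 tested primordial germ cell genes, which include Dazl and Ddx4, 14 fell in wild type and 13 in the labelled knockout, and the rest did not pass the test. Utf1, a chromatin factor of ES cells, went from 926 to 20.1 CPM in wild type and Ifitm3 from 646 to 79.6 CPM.

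The families of single genes behaved less uniformly. Among 5 MORC genes, Morc3 fell by 0.57 in each genotype, with Morc1 as described above, and Morc4 rose by 3.16 in wild type (SE 0.12, adjusted p = 2.12e-09). Morc2a rose by 0.37 in the labelled knockout (SE 0.1, adjusted p = 0.00912) and differed by 0.23 in wild type (SE 0.1, adjusted p = 0.0751). In the Tcl1 family Tcl1 alone had enough reads to be tested, and the other 5 genes were at 0 or near it. The 3 Akt kinases, whose activity TCL1 supports, all rose, Akt1 by 2.05 in wild type (SE 0.09, adjusted p = 5.46e-09). Of 24 tested repressors of germline genes, 8 fell and 7 rose in wild type and 9 fell and 7 rose in the labelled knockout, beside 32.1% lower and 32.9% higher of all genes in wild type and 32.3% and 31.1% in the labelled knockout.
The repressors with the highest day 0 level per kilobase all fell in wild type: Trim28, the corepressor of KRAB zinc finger proteins, by a log2 difference of -1.72 (SE 0.1, adjusted p = 5.08e-08), Wdr5 by -1.66 (SE 0.07), Uhrf1 by -0.81 (SE 0.07) and Zfp57 by -3.02 (SE 0.46, adjusted p = 0.000139). Subunits of PRC1.6 went both ways in wild type: Pcgf6, L3mbtl2, Wdr5 and Hdac2 fell, E2f6, Yaf2, Rybp, Tfdp1 and Ring1 rose, and Mga, Max, Rnf2, Cbx3 and Hdac1 did not pass the test. The log2 differences ran from -1.66 for Wdr5 to 3.34 for Yaf2. Tet1, which oxidises methylated cytosine, went from 126 to 13.8 CPM and Tet2 from 68.6 to 2.44 CPM.

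The genes most like each of the 8 over the 12 libraries, by Pearson's r of log2 CPM among about 10218 genes, mostly describe the step between days, which all share. For Morc1 they were Ptma (r = 0.994), Asns and Evc; for Khdc3 they were Asns (r = 0.9958), Morc1 (r = 0.995) and Pura; for Tcl1 they were Trim25 (r = 0.9961), Pura and Fbxo15. Dazl was most like Upp1 (r = 0.9991), Fig4 and Utf1, and Stk31 most like AU020206 (r = 0.9993), Slc25a5 and Prps1. Mael was most like Frrs1 (r = 0.99), Ddx4 most like Syngr1 (r = 0.989) and Sycp3 most like Cabp7 (r = 0.9794). The last 3 are the genes whose day 7 reads lay in few libraries. Morc1 and Khdc3 were both picked on day 7 counts of these libraries, so that their likeness to each other is partly built in.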

How the data were processed

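Gene expression was measured by polyA RNA-seq in 12 libraries, 3 in each of 4 groups. Expected counts per gene, all whole numbers, were made with StringTie and deposited by the authors as whole-genome and allele-split tables. The submitters' processing notes name, with no order, DESeq2 1.32.0, StringTie 1.3.3, SAMtools 0.1.19, HISAT2 2.1.0, Trimmomatic 0.36 and FastQC 0.11.3, and the builds GRCm38 and mm10. Settings, strand and annotation release were not given in those sources. Library totals were 25190483 to 69079368.

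Counts entered as deposited, with no rounding needed. edgeR 4.0.16 (R 4.3.3) was fitted to all 12 libraries (filterByExpr by group, TMM, quasi-likelihood test, 1 coefficient per group), with Benjamini-Hochberg adjustment over 19235 genes and a threshold of 0.05. CPM divides a count by the library size over the tested genes, scaled by the TMM factor. Folds against a group at 0 use 3 counts over the group. Allelic balance was fitted where every day 0 library held 20 or more allele-resolved reads of a gene. The scripts were tested on simulated data. The allele-split transcript table was not used.

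Positions are those of GRCm38, and 55141 gene rows (99.38%) matched the annotation; 96.73% of these had the same symbol. The lowest correlation between replicates of a group was 0.9618 and no library repeated another within sampling noise.

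The 8 genes and all lists were chosen with earlier results of these data known. Named besides them are Sirt7, the 3 genes most like each of the 8 (mean log2 CPM of at least 2, no predicted genes), and for each list up to 4 genes with the highest day 0 CPM per kb of exon or called between genotypes at day 0. List genes outside this rule were named after their values were seen: Tdrkh, Tdrd5, Tdrd7, Spo11, Tle6, Zp3, Dnmt3b and PRC1.6 subunits. The same holds for the naive markers Zfp42, Nr0b1 and Tbx3, the day 7 mesoderm and fibroblast markers and the neighbours of Morc1. Alternatives were DESeq2 1.42.0, RLE size factors, no filter, the 2 groups compared alone, a replicate block, the treatment label as a covariate and leaving out each library. That label (LIF or None) runs by replicate and genotype, not by day, and was used there only.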

Additional observations from a re-analysis of the deposited data

How the results depend on the processing

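Under every alternative that was run, 0 of the 8 genes were called between genotypes at day 0. The genes other than Morc1 and Khdc3 were called lower at day 7 in both genotypes under each of them. They passed the filter on low counts through day 0, so that these calls are partly built into the selection. For allelic balance, Khdc3 and Ddx4 alone had reads of both genomes, and neither was called where it was fitted. Counts over all genes moved: at day 0, 25 genes were called, but 329 by DESeq2, 0 with the 2 groups alone and 10 with the treatment label as a covariate. At day 7, 5 were called, but 133 by DESeq2 and 9 with the 2 groups alone. Leaving out 1 library gave 6 to 55 genes at day 0 (55 without the second labelled knockout day 0 library, 6 without the third labelled knockout day 7 library) and 5 to 13 at day 7 (13 without the first labelled knockout day 7 library). The cause was not tested.

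No count of directions is read from the genotypes at day 7, since Morc1 and Khdc3 were chosen from that contrast. Ddx4, Mael and Sycp3 had SEs over 1 there (1.3, 1.12 and 1.09). With the 2 day 7 groups alone, 1 of the genes followed passed the filter, Morc1, at a log2 difference of -3.8. At day 0, with the treatment label as a covariate, Mael turned to 0.2 and Sycp3 to -0.19. Leaving out 1 library moved the day 0 log2 difference between -0.06 and 0.05 for Khdc3, -0.06 and 0.04 for Tcl1, -0.23 and 0.23 for Ddx4, -0.23 and 0.11 for Mael, and -0.2 and 0.19 for Sycp3, so that these have no settled sign. At day 7 it moved Morc1 between -4.27 and -3.37, Khdc3 between -6.26 and -2.13, Tcl1 between -6.38 and -1.48, Ddx4 between -3.81 and 4.13, Mael between -5.64 and 0.79, and Sycp3 between -5.39 and 0.6; where the lone library with reads is left out, the value is set by the prior count.

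Replicate numbers did not pair the libraries: correlations of same-numbered deviations over 11824 genes ran from -0.124 to 0.133. With a replicate block, 6 genes were called at day 0 and 2 at day 7 over all genes. Of the 8 genes, 0 were called at day 0 with this block.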
